A study of Mus musculus with 72 samples.

Results

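The transcripts described here encode 5 subunits of the GABA-A receptor, the beta subunits Gabrb1 and Gabrb2, the gamma subunits Gabrg1 and Gabrg3 and the delta subunit Gabrd. They were taken by gene symbol from a table of 55401 genes counted in 72 mouse brain libraries. All 5 were found, and all 5 passed the filter on low counts in every fit. The table holds 14 other genes named as GABA-A receptor subunits.

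GABA-A receptors are chloride channels built from several subunits around a central pore, and they carry most fast inhibition in the mature brain. Beta subunits are needed for the receptor to assemble and to reach the membrane, and GABA binds where a beta subunit meets an alpha subunit. Gamma subunits hold receptors at synapses and form part of the benzodiazepine site. The delta subunit takes the place of gamma in receptors outside synapses, which carry a steady, tonic current.

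The pups were C57Bl/6NTac mice, the RNA came from the right brain hemisphere, and each library was labelled male or female and morphine or saline. In the window called PND1, dams carried a minipump that gave morphine at 10 mg/kg/day or saline during pregnancy, and pups were dissected 6 h after they were found on day 1. In the window called PND14, pups were injected with morphine at 10 mg/kg or with saline 2 times a day and dissected on day 14, 6 h after the last injection. The 3-Tri pups had both exposures, with saline by both routes as the control, and were also dissected on day 14. The PND1 morphine group had 4 pups labelled female and 6 labelled male, the PND1 saline group had 7 of each, and the 8 groups of PND14 and 3-Tri had 6 pups apiece. The submitters' design text names the cortex and day 15, whereas the methods name the hemisphere and day 14. Litters are not given for single pups, so p-values measure the spread between libraries, some of which may share a dam. The sample IDs of each day 14 arm of 12 libraries open with only 2 numbers (4422 and 4423 for PND14 morphine, 4424 and 4425 for PND14 saline, 4433 and 4436 for 3-Tri morphine, 4429 and 4431 for 3-Tri saline), whose meaning is not given. If pups with the same number are related, the day 14 p-values are too small. The PND1 sample IDs hold no such number. There the dam carried the pump, so if PND1 pups share a dam, the PND1 p-values are too small as well.

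Total counts ran from 20742862 to 27333125 in the 24 PND1 libraries, from 4407544 to 21404819 in PND14 and from 3113919 to 19938980 in 3-Tri. Levels of Xist and Ddx3y went against the sex label in 4 of 24 PND1 libraries, in 0 of 24 PND14 libraries and in 12 of 24 3-Tri libraries, so "male" and "female" below are labels. Summed markers of striatal projection neurons reached 454 to 626 CPM and those of the thalamus 266 to 353 CPM in the saline libraries of PND14, so regions outside the cortex were in the tissue. Summed cerebellar markers were at 103 to 188 CPM and hindbrain markers at 0 to 1.51 CPM in the same libraries. Among the cerebellar markers Zic1, Car8, Cbln1 and Pvalb had means of 49.6, 34.1, 17.6 and 12.9 CPM. Gabra6, Cbln3, Barhl1, Fat2, Pcp2 and Ppp1r17 had means from 1.14 to 3.14 CPM. CPM here means a library's counts scaled to a common total (edgeR's TMM-scaled CPM).

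Gabrb1 lies on chromosome 5 from 71658113 to 72149037 on the plus strand, and Gabrg1 lies on the same chromosome from 70751047 to 70842617 on the minus strand. Gabrb2 lies on chromosome 11 from 42419757 to 42629028 on the plus strand. Gabrg3 lies on chromosome 7 from 56716465 to 57387188 and Gabrd on chromosome 4 from 155384980 to 155398112, both on the minus strand. The positions are those of the GENCODE M21 gene models on GRCm38. All 5 are protein-coding genes, and counts covered their exons. The GC content of their exons was 35.3% for Gabrg1, 40.9% for Gabrb1, 42.9% for Gabrg3, 44.0% for Gabrb2 and 54.7% for Gabrd, against a median of 49.4% over the genes tested at PND1.

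Promoter windows of the 250 bases before the start annotated by RefSeq, on GRCm38.p6, were held for 4 of the 5 genes. None was at hand for Gabrd. They are shown for the first start of each gene because 3 of these genes rose together by a like amount from PND1 to PND14 in saline pups while Gabrg1 rose less. Each is written 5′ to 3′ on the gene's strand, with CG dinucleotides in capitals.
Gabrb1: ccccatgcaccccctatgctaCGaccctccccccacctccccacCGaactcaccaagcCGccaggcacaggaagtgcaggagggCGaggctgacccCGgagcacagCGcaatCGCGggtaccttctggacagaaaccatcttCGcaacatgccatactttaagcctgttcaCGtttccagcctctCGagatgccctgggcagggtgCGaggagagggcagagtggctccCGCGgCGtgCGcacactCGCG
Gabrb2: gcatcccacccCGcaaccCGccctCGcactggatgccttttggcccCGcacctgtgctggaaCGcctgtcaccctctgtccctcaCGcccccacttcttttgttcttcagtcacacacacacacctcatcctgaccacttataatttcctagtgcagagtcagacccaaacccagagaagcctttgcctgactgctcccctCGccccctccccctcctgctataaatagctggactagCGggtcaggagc
Gabrg3: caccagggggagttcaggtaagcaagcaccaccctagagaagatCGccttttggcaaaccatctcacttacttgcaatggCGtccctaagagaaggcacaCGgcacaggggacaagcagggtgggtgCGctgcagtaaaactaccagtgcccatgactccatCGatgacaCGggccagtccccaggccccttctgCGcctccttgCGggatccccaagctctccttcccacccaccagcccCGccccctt
Gabrg1: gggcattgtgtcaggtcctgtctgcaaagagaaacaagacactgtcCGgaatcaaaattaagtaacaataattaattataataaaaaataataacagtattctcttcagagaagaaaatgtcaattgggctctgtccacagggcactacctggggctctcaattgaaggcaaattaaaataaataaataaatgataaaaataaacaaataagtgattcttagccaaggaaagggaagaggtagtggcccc
The windows lie at chr5:71657671-71657920 (plus strand) for Gabrb1, chr11:42420190-42420439 (plus strand) for Gabrb2, chr7:57387216-57387465 (minus strand) for Gabrg3 and chr5:70842618-70842867 (minus strand) for Gabrg1. The Gabrb2 window lies inside the GENCODE M21 gene model given above, which begins at 42419757. CG occurred 18 times in the window of Gabrb1, 9 times in that of Gabrg3, 8 times in that of Gabrb2 and 1 time in that of Gabrg1. Over all 32851 windows of the same length the median was 6, with quartiles of 2 and 16, and 92.1% of windows held at least 1 CG. The motif TATAAA, searched on both strands, occurred 1 time in the Gabrb2 window and 0 times in the other 3 windows, and 12.4% of all windows held it. These letters describe the windows and do not show that a factor binds there. Windows at later starts, not shown, held 6 CG for Gabrb1 and 8 and 4 CG for Gabrb2.

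Saline libraries of PND14 and PND1 were compared to follow the subunits over the first 2 weeks after birth. All 5 subunit mRNAs were higher in PND14 saline than in PND1 saline libraries. Gabrd, the extrasynaptic subunit, rose 15.3-fold, Gabrb1, Gabrb2 and Gabrg3 rose 2.67-fold, 2.61-fold and 2.43-fold, and Gabrg1 rose 1.28-fold. In this comparison 84.9% of the 22010 genes tested were called by edgeR's quasi-likelihood test at an adjusted p under 0.05, so a call alone says little and the sizes are what set the subunits apart. Age, the route of saline and sequencing depth changed together between the windows and cannot be told apart, nor can more RNA per cell and more cells of a type in these bulk samples.

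Gabrd had a lowest, median and highest level of 1.86, 2.58 and 3.24 CPM in the 14 PND1 saline libraries, and of 35.1, 39.6 and 46.0 CPM in the 12 PND14 saline libraries. The groups were far apart, and the lowest day 14 library lay above every day 1 library. The log2FC was 3.94 (SE 0.062, edgeR adjusted p = 5.52e-60), and 0.395% of all genes tested rose more. At PND1 the gene was counted 40 to 87 times per library, so its day 1 level was low but measured.

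The beta subunits moved in near parallel. Gabrb1 ran from 52.7 to 74.5 CPM with a median of 67.6 CPM in PND1 saline, and from 146 to 196 CPM with a median of 177 CPM in PND14 saline. Its log2FC was 1.42 (SE 0.050, edgeR adjusted p = 3.91e-38). Gabrb2 ran from 44.6 to 83.1 CPM with a median of 66.7 CPM and then from 129 to 204 CPM with a median of 177 CPM, a log2FC of 1.38 (SE 0.067, edgeR adjusted p = 3.71e-30). For neither gene did the windows overlap. The share of all genes without overlap was not counted in this or any other comparison. The log2 ratio of Gabrb2 to Gabrb1 CPM stayed near 0, at 0.0094 ± 0.19 (SD, n = 14) in PND1 saline and -0.021 ± 0.11 (SD, n = 12) in PND14 saline.

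The gamma subunits differed in how much they rose. Gabrg3 ran from 27.3 to 36.6 CPM with a median of 30.3 CPM in PND1 saline and from 67.8 to 85.5 CPM with a median of 73.3 CPM in PND14 saline, a log2FC of 1.28 (SE 0.053, edgeR adjusted p = 3.15e-34). Gabrg1, a gamma subunit found in glia as well as in neurons, ran from 28.1 to 41.6 CPM with a median of 34.9 CPM and then from 42.1 to 47.6 CPM with a median of 44.7 CPM. All 12 day 14 values of Gabrg1 lay above all 14 day 1 values, but the gap was narrow, and the log2FC was 0.36 (SE 0.044, edgeR adjusted p = 1.78e-11). The median log2FC of all genes tested was -0.017.

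The 3-Tri saline pups, of the same age as PND14 pups, gave the same picture for the 5 subunits. Against PND1 saline the log2FC was 3.92 (SE 0.062) for Gabrd, 1.48 (SE 0.050) for Gabrb1, 1.43 (SE 0.067) for Gabrb2, 1.31 (SE 0.053) for Gabrg3 and 0.36 (SE 0.044) for Gabrg1. All 5 were called, as were 85.1% of the genes tested, and the PND1 saline libraries are shared with the comparison above. Between the day 14 saline groups, 3-Tri minus PND14, edgeR called 0 of the 5 and 0% of all genes (723 of 22010 at an unadjusted p under 0.05), and DESeq2 called 0 of the 5 and 4 of all genes. The largest of these 5 differences was 0.062 on the log2 scale, for Gabrb1, with a 95% interval from -0.042 to 0.17. The saline change from PND1 to PND14 was not called as different between sex labels for any of the 5 (0.00454% of genes were called, 1 gene, and DESeq2 called 4).

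**Figure D1:**
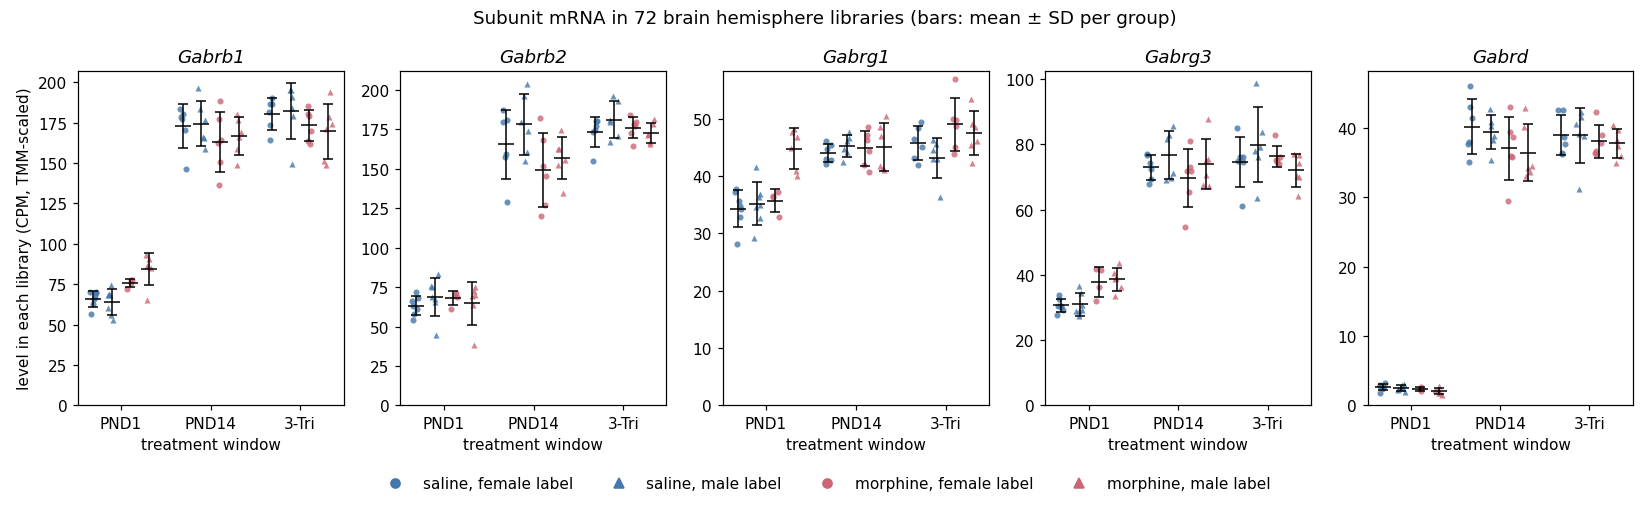
Level of each subunit mRNA in all 72 libraries, in CPM on a linear axis from 0 with its own scale per gene, by treatment window. Circles carry the female label and triangles the male label, blue is saline and red is morphine, and bars give the mean and SD of each group. Gabrd lies at 1.57 to 3.24 CPM in every PND1 library and at 29.5 to 46.0 CPM in every day 14 library, while the Gabrg1 values of the windows overlap.

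The level of each mRNA per kb of exon allows the genes to be set side by side. In PND1 saline libraries the mean CPM per kb was 10.4 ± 1.5 for Gabrb2, 4.70 ± 0.46 for Gabrb1, 4.42 ± 0.44 for Gabrg1, 2.58 ± 0.23 for Gabrg3 and 0.90 ± 0.14 for Gabrd (SD, n = 14 each). Gabrb1 and Gabrg1 did not differ beyond their SDs. In PND14 saline libraries it was 27.0 ± 3.25 for Gabrb2, 13.8 ± 1.11 for Gabrd, 12.5 ± 0.95 for Gabrb1, 6.27 ± 0.50 for Gabrg3 and 5.67 ± 0.23 for Gabrg1 (SD, n = 12 each). Gabrd had moved from last to the second place, within the SDs of Gabrb1, and the SDs of Gabrg3 and Gabrg1 also met. With the length of the longest transcript in place of all exons, Gabrg1 stood at 7.29 in PND1 saline, above Gabrb1 at 4.74, and at 9.36 in PND14 saline, above Gabrg3 at 7.66, so the places of Gabrg1 depend on which length is used. Gabrb2 came first and Gabrd last in PND1 saline with either length.

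Taken as shares of the summed CPM per kb of the 5 genes, Gabrd rose from 3.93% ± 0.60 to 21.2% ± 1.98 and Gabrg1 fell from 19.4% ± 2.40 to 8.72% ± 0.64 between PND1 and PND14 saline libraries (SD, n = 14 and 12). The shares of Gabrb1 were 20.5% ± 1.34 and 19.2% ± 0.80, those of Gabrb2 44.9% ± 3.60 and 41.2% ± 2.38, and those of Gabrg3 11.3% ± 0.99 and 9.59% ± 0.49. These shares describe 5 mRNAs and not the make-up of receptors.

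**Figure D2:**
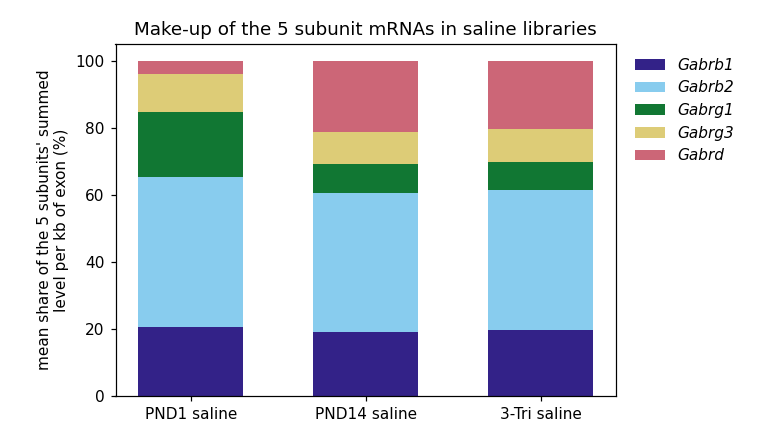
Mean share of each gene in the summed level per kb of exon of the 5 subunits, in percent on the vertical axis, in the saline libraries of each window (n = 14, 12 and 12). Gabrd takes 3.93% in PND1, 21.2% in PND14 and 20.4% in 3-Tri, and Gabrg1 takes 19.4%, 8.72% and 8.49%.

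Other genes of the receptor were tested over the same interval, in which 41.7% of all genes were higher and 43.2% lower. Of the 14 other subunit genes 13 were tested, and 11 were higher and 0 lower in PND14 than in PND1 saline, with a median log2FC of 0.57. Gabra4, an alpha subunit that pairs with delta outside synapses, had a log2FC of 2.48 (SE 0.035, edgeR adjusted p = 5.94e-63). Of 17 genes for assembly, trafficking and anchoring of the receptor, 12 were higher and 2 lower, with a median log2FC of 0.49. Nsf, which drives membrane fusion, had a log2FC of 2.01 (SE 0.026). The lower ones were Hap1, a trafficking adaptor, at -0.66 (SE 0.053), and Gabarap, a receptor-associated protein, at -0.22 (SE 0.036).

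Markers of several cell types moved over the same days. All 6 oligodendrocyte markers were higher in PND14 than in PND1 saline, with a summed level of 176 to 248 CPM in PND1 and 4068 to 5987 CPM in PND14. Of 8 astrocyte markers 7 were higher and 0 lower, with sums of 649 to 924 and 4304 to 5582 CPM. Of 6 progenitor markers 5 were lower, with sums of 125 to 201 and 50.5 to 81.5 CPM. Of 8 interneuron markers 6 were higher and 2 lower, with sums of 706 to 830 and 993 to 1087 CPM. Their part in the change of the subunits was not tested.

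Morphine and saline were compared within each window to ask which subunits differed after exposure. At PND1, after exposure before birth, Gabrb1 and Gabrg3 were 1.23-fold and 1.24-fold higher and Gabrg1 1.15-fold higher in morphine than in saline libraries with the sex labels averaged. Gabrb2 had a log2 fold difference of 0.012 and Gabrd one of -0.22, and neither was called. So 3 of the 5 were called, all higher, against a background of 16.8% of 21714 genes called in either direction and a median log2FC over all genes of 0.0074. After adjusting the counts for GC content and length of each gene, the calls for Gabrb1 and Gabrg3 stayed and that for Gabrg1 was lost. Male morphine replicates 6 to 10 stood apart from the other PND1 libraries in base composition. Without these 5 libraries only Gabrg3 was called, at 0.31 (SE 0.077, edgeR adjusted p = 0.0429), while Gabrb1 was at 0.11 (SE 0.074, adjusted p = 0.47) and Gabrg1 at 0.13 (SE 0.078, adjusted p = 0.385). The male morphine group is then replicate 5 alone, whose spread is assumed to be that of the other groups.

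Gabrb1 ran from 65.2 to 92.9 CPM with a median of 81.4 CPM in the 10 morphine libraries and from 52.7 to 74.5 CPM with a median of 67.6 CPM in the 14 saline libraries. Of the 10 morphine libraries 8 lay above every saline library and 1 lay below the saline median. The share of all genes set apart to this degree was not counted, for Gabrb1 or for the subunits below. The log2FC was 0.30 (SE 0.056, edgeR adjusted p = 0.000969), and with the correction 0.18 (adjusted p = 0.00118). With male labels the log2FC was 0.40 (SE 0.075, edgeR adjusted p = 0.0013). With female labels the 4 morphine libraries stood at 77.9, 76.0, 72.3 and 77.4 CPM, all above the 7 saline libraries at 56.8 to 70.3 CPM, with a log2FC of 0.20 (SE 0.084) and an adjusted p of 0.352 in edgeR. The morphine library at 77.4 CPM and the saline library at 70.3 CPM went against the female label.

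Gabrg3 ran from 31.9 to 43.7 CPM with a median of 38.9 CPM in morphine and from 27.3 to 36.6 CPM with a median of 30.3 CPM in saline libraries, and 6 of 10 morphine libraries lay above every saline library. The log2FC was 0.31 (SE 0.053, edgeR adjusted p = 0.000444), and 0.22 with the correction (adjusted p = 0.0116). It was alike under both labels, at 0.32 (SE 0.071, edgeR adjusted p = 0.00425) in males and 0.31 (SE 0.080, edgeR adjusted p = 0.157) in females. The 4 female morphine libraries stood at 36.2, 31.9, 41.7 and 41.3 CPM, 3 of them above all female saline libraries, and DESeq2 called this difference (adjusted p = 0.0449). The library at 41.3 CPM went against its label, as did female saline replicate 5.

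Gabrg1 ran from 32.8 to 48.2 CPM with a median of 40.4 CPM in morphine and from 28.1 to 41.6 CPM with a median of 34.9 CPM in saline libraries, and 4 of 10 morphine libraries lay above every saline library. All 4 were among male morphine replicates 6 to 10. The log2FC was 0.20 (SE 0.053, edgeR adjusted p = 0.0109), and with the GC and length correction 0.076 (adjusted p = 0.303). With male labels it was 0.35 (SE 0.070, edgeR adjusted p = 0.00223) and with female labels 0.057 (SE 0.080, edgeR adjusted p = 0.833). The difference between labels was 0.29 (95% interval 0.071 to 0.51), with an unadjusted p of 0.0114 and an edgeR adjusted p of 0.871. The libraries apart in base composition all carried the male label, and the part of this in the difference between labels was not tested.

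Gabrb2 ran from 38.4 to 75.1 CPM with a median of 69.6 CPM in morphine and from 44.6 to 83.1 CPM with a median of 66.7 CPM in saline libraries, and the groups covered each other almost wholly. Its log2FC was 0.012 (95% interval -0.17 to 0.19, edgeR adjusted p = 0.948), and the sign changed under several alternatives. Gabrd, at 1.57 to 2.78 CPM in morphine and 1.86 to 3.24 CPM in saline libraries, had medians of 2.21 and 2.58 CPM and a log2FC of -0.22 (95% interval -0.43 to -0.021, edgeR adjusted p = 0.119). Without male morphine replicate 5, Gabrd was called at -0.27 (adjusted p = 0.0373). Replicate 5 also held the lowest Gabrb1 and Gabrb2 of its group and went against its sex label. Without the male morphine libraries that stood apart in base composition, Gabrd was instead at -0.012 with the labels averaged. Replicate 5 was then the only male morphine library.

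With male labels 3 of the 5 were called higher at PND1 (background 14.4% of genes), and with the correction 1 was, Gabrb1, at 0.26 (adjusted p = 0.00122), while Gabrg1 (adjusted p = 0.0738) and Gabrg3 (adjusted p = 0.0724) were not. With female labels edgeR called 0 of the 5 and 0% of all genes, with 2547 genes at an unadjusted p under 0.05, and DESeq2 called 1 of the 5 and 138 of all genes. The male minus female difference of the morphine effect was called for 0 of the 5 and 0% of all genes at PND1 in edgeR, with 1187 genes at an unadjusted p under 0.05, and for 0 genes in DESeq2. Without the 4 libraries against their sex label, Gabrb1, Gabrg3 and Gabrg1 were called with the labels averaged, at 0.31, 0.28 and 0.21.

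Base composition moved with this comparison. Over 21666 genes the PND1 log2FC had a correlation of -0.43 with GC content, a description across genes that share libraries. Within single libraries, the correlation of a gene's deviation from its PND1 mean with GC content was -0.51 to -0.32 in male morphine replicates 6 to 10. It was 0.012 to 0.076 in male morphine replicate 5 and the 4 female morphine libraries, 0.13 to 0.28 in female saline and -0.16 to 0.25 in male saline. Of the 5 libraries with the low values, 5 lay above every saline library for Gabrb1, 4 for Gabrg1 and 3 for Gabrg3, and of the other 5 morphine libraries 3, 0 and 3 did. The genes that were higher are poor in GC, with 10.0% of tested genes below Gabrb1, 16.9% below Gabrg3 and 0.817% below Gabrg1, whereas 21.8% lay below Gabrb2, which was not called, and 77.0% below Gabrd. The r with GC was 0.020 for the PND14 and 0.013 for the 3-Tri difference.

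**Figure D3:**
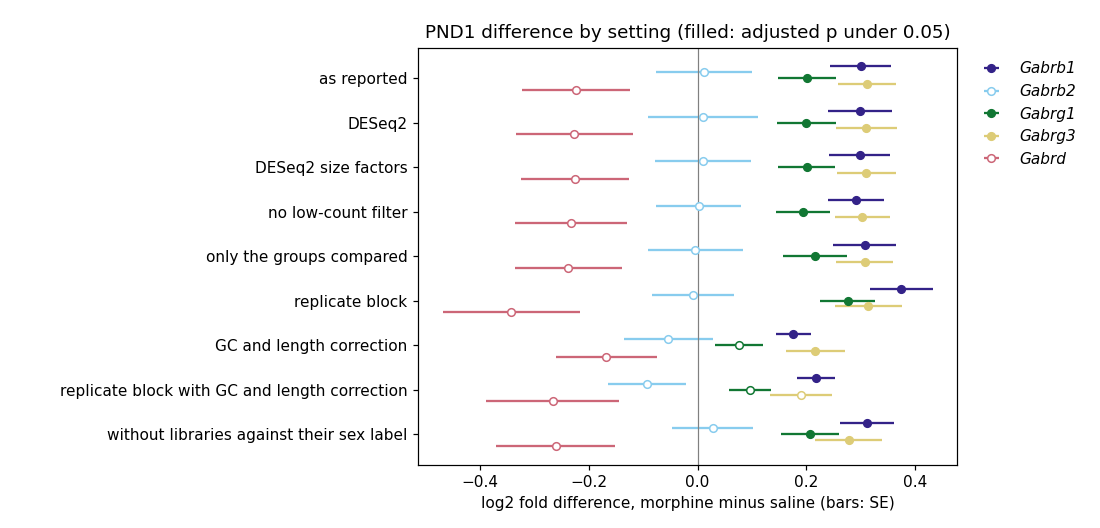
Morphine minus saline difference of each subunit at PND1 with the sex labels averaged, as log2 fold difference on the horizontal axis, under the analysis as reported and 8 alternatives. Points are estimates, bars are SEs, and filled points have an adjusted p under 0.05. The values without male morphine replicates 6 to 10 are not plotted. Gabrb1 is filled under the settings plotted, at 0.18 with the GC and length correction, whereas Gabrg1 is open at 0.076.

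Of the 14 other subunit genes 12 were tested at PND1, and 6 were higher and 0 lower in morphine libraries, with a median log2FC of 0.12, where 7.39% of all genes tested were higher and 9.43% lower. Among them were Gabra3 at 0.22 (SE 0.032, edgeR adjusted p = 0.000162) and Gabrq, the theta subunit, at 0.31 (SE 0.092, edgeR adjusted p = 0.0222). Of the 17 assembly and anchoring genes 3 were higher and 4 lower, with a median of 0.008. Plcl1, which binds beta subunits, was higher at 0.21 (SE 0.054). Insyn1, a protein of inhibitory synapses, was lower at -0.17 (SE 0.036), as was Nlgn2, the neuroligin of inhibitory synapses, at -0.14 (SE 0.032). Of 8 astrocyte markers 2 were higher, with sums of 649 to 924 CPM in saline and 766 to 1119 CPM in morphine libraries. The sums of 10 hindbrain markers ran from 0.16 to 58.3 CPM and from 1.27 to 107 CPM. Of 7 striatal markers 2 were lower, and their sums were 164 to 218 CPM in saline and 169 to 191 CPM in morphine libraries. The part of these markers in the subunit values was not tested. All calls in this paragraph come from the fit without the GC and length correction, and values of these genes with it are not reported here. Over all genes, 3653 were called without the correction and 2001 with it.

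At PND14, after injections in the first 2 weeks, 0 of the 5 subunits were called with the labels averaged (background 1.69% of 19636 genes), with male labels (0.28%) or with female labels (0%, with 2054 genes at an unadjusted p under 0.05), and DESeq2 also called 0 of the 5 in each, with 22 of all genes under the female label. Gabrb2 ran from 120 to 182 CPM with a median of 154 CPM in the 12 morphine libraries and from 129 to 204 CPM with a median of 177 CPM in the 12 saline libraries, and the groups overlapped over most of their range. Its log2FC was -0.16 (95% interval -0.30 to -0.028, edgeR adjusted p = 0.21). Gabrd ran from 29.5 to 43.1 CPM in morphine and from 35.1 to 46.0 CPM in saline libraries, with 5 of 12 morphine libraries below every saline library, and its log2FC was -0.11 (95% interval -0.22 to -0.0045, edgeR adjusted p = 0.288). The log2FC was -0.071 for Gabrb1 (95% interval -0.17 to 0.028), -0.064 for Gabrg3 (-0.17 to 0.045) and 0.013 for Gabrg1 (-0.063 to 0.090). The male minus female difference was called for 0 of the 5 and 0% of genes (676 at an unadjusted p under 0.05, and 0 in DESeq2).

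Among the other subunits, 1 of 12 tested was called at PND14, Gabra4, at -0.13 (SE 0.032, edgeR adjusted p = 0.0326). Of the assembly and anchoring genes 1 of 17 was called, Gphn, which encodes gephyrin, at 1.22 (SE 0.31, edgeR adjusted p = 0.0386). Its mean was 378 CPM in morphine and 154 CPM in saline libraries. The sums of the 17 genes had medians of 3701 CPM in morphine and 3693 CPM in saline, with highest libraries at 5427 and 3973 CPM. Values of Gphn in single libraries are not reported here. The calls of Gabra4 and Gphn were lost, as were those of all genes, without the saline libraries whose sample IDs open with 4425. The meaning of that number is not given. Of the 6 oligodendrocyte markers 4 were lower in morphine libraries, with sums of 2688 to 5107 CPM against 4068 to 5987 CPM in saline, and the part of this in the subunit values was not tested.

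In 3-Tri, after both exposures, edgeR called 0 of the 5 subunits and 0% of 19730 genes with the labels averaged (963 at an unadjusted p under 0.05), with male labels (982) and with female labels (476), and DESeq2 called 0 genes in each. Gabrg1 ran from 42.3 to 56.9 CPM with a median of 48.6 CPM in morphine and from 36.4 to 49.5 CPM with a median of 44.8 CPM in saline libraries, and 4 of 12 morphine libraries lay above every saline library. Its log2FC was 0.11 (95% interval 0.020 to 0.19, edgeR adjusted p = 0.97). Gabrb1 had a log2FC of -0.079 (95% interval -0.17 to 0.012), Gabrd of -0.057 (-0.14 to 0.022), Gabrg3 of -0.044 (-0.15 to 0.060) and Gabrb2 of -0.025 (-0.087 to 0.036). The male minus female difference was called for 0 of the 5 and 0% of genes (457 at an unadjusted p under 0.05, and 0 in DESeq2), in a window where 12 of 24 libraries went against the label. Of the other subunits 0 of 11 tested were called, and of the assembly and anchoring genes 0 of 17.

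**Figure D4:**
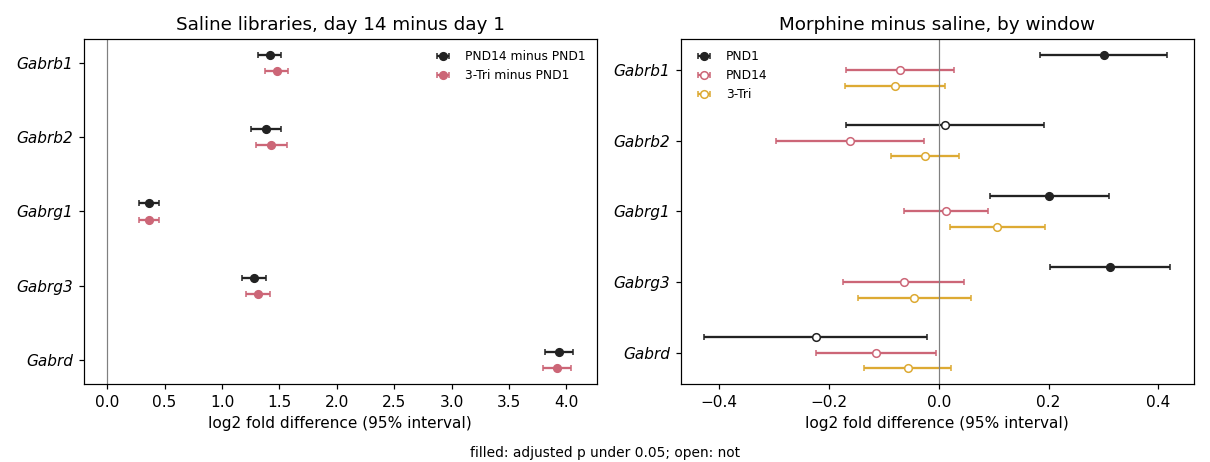
Log2 fold differences of the 5 subunits with 95% intervals, filled where the adjusted p was under 0.05. The left panel gives saline PND14 minus PND1 and saline 3-Tri minus PND1, from 0.36 for Gabrg1 to 3.94 for Gabrd, and the right panel gives morphine minus saline in each window on a narrower axis, where the filled points are Gabrb1, Gabrg1 and Gabrg3 at PND1.

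The morphine effects of the windows were compared directly in 1 fit of all 72 libraries. The effect at PND14 was below that at PND1 for Gabrb1, by a log2 difference of -0.37 (SE 0.075, edgeR adjusted p = 0.000449), for Gabrg3, by -0.38 (SE 0.079, edgeR adjusted p = 0.000686), and for Gabrg1, by -0.19 (SE 0.065, edgeR adjusted p = 0.0394). These 3 of the 5 were called where 13.3% of genes were. With the GC and length correction the difference was -0.18 for Gabrb1 (adjusted p = 0.00434), -0.23 for Gabrg3 (adjusted p = 0.0301) and -0.070 for Gabrg1 (adjusted p = 0.563). The effect in 3-Tri was below that at PND1 for Gabrb1, by -0.38 (SE 0.074, edgeR adjusted p = 0.00071), and for Gabrg3, by -0.36 (SE 0.078, edgeR adjusted p = 0.00202), 2 of the 5 against 8.43% of genes. Without the 16 libraries against their sex label the differences were -0.34 (SE 0.096, adjusted p = 0.0856) for Gabrb1 and -0.33 (SE 0.11, adjusted p = 0.164) for Gabrg3, close in size but not called. Without PND1 male morphine replicates 6 to 10, Gabrg3 was called at PND14 minus PND1 (-0.38, adjusted p = 0.041) and at 3-Tri minus PND1 (-0.36, adjusted p = 0.0443), and Gabrb1 was not (-0.19 and -0.19, adjusted p = 0.341 and 0.317), nor was Gabrg1 at PND14 minus PND1 (-0.12, adjusted p = 0.524). Both comparisons use the same PND1 libraries. Between 3-Tri and PND14 the effect was called as different for 0 of the 5 (0.182% of genes, 2012 at an unadjusted p under 0.05), and DESeq2 called 0 of the 5 and 74 of all genes.

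Within groups, the subunits varied together to different degrees. After each library's log2 CPM was set against the mean of its labelled group, Gabrb1 and Gabrb2 had an r of 0.69 over the 72 libraries, with 0.73 in PND1, 0.76 in PND14 and 0.60 in 3-Tri. Gabrb1 and Gabrg3 had an r of 0.57, with 0.28, 0.76 and 0.74. Other pairs had a lower r over the 72 libraries, and several differed between windows. Gabrb2 and Gabrg3 had an r of 0.27, with 0.16 in PND1, 0.46 in PND14 and 0.37 in 3-Tri. Gabrb1 and Gabrg1 had an r of 0.21, with 0.46, 0.097 and -0.049. Gabrg1 and Gabrg3 had an r of -0.010, with 0.23 in PND1, 0.12 in PND14 and -0.39 in 3-Tri. Gabrd had an r between -0.19 and -0.060 with the other 4, with -0.48 for Gabrg1 in PND1 and 0.27 in 3-Tri, and -0.54 for Gabrg3 and -0.42 for Gabrb1 in 3-Tri. These points share depth and base composition within a library, and the values are descriptions.

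The protein-coding genes whose values followed each subunit most closely over the 72 libraries, by the same measure among 14742 genes, differed between subunits. For Gabrb1 they were Lrrc7 (r = 0.85), Ank3 (0.84) and Pclo (0.84), which encode a postsynaptic density protein, an ankyrin of the axon initial segment and the presynaptic protein Piccolo. For Gabrb2 they were Ncor1 (r = 0.89), a nuclear corepressor, Trio (0.85) and Dock9 (0.85), both guanine nucleotide exchange factors. For Gabrg3 they included Dmd (r = 0.78) and Cntnap2 (0.76), which encode dystrophin and an adhesion protein of the axon. For Gabrd they were Icam5 (r = 0.66), a dendritic adhesion protein, Rasl11b (0.64) and Prn (0.61). For Gabrg1 they were Gng12 (r = 0.64), a G protein gamma subunit, Tmem229a (0.64) and Ankrd34b (0.63). Some of these r differed between PND1, PND14 and 3-Tri, with 0.71, 0.17 and 0.81 for Tmem229a and 0.76, 0.35 and 0.65 for Rasl11b. Dock9 had 0.90, 0.86 and 0.53. Others differed less, such as Lrrc7 with 0.88, 0.83 and 0.85.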

How the data were processed

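Reads from NEBNext Ultra II libraries were trimmed by the authors with Trim Galore 0.6.6, mapped to the mouse genome GRCm38 (mm10) by HISAT2 2.2.1, stripped of marked duplicates by Picard, and assigned to GENCODE M25 genes by featureCounts 2.0.1. The strand setting is not given in the sources used here. The deposited values are raw counts per gene and library. The authors' own comparison tables (DESeq2 1.36.0 in R 4.2.1 by the submitters' notes) were used for gene symbols only, and their fold changes and p-values were not used.

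Counts were tested in R 4.3.3 with edgeR 4.0.16 (TMM, filterByExpr with a minimum count of 10 and a minimum total of 15, quasi-likelihood F test, Benjamini-Hochberg adjustment over all genes tested, called at 0.05). Drug contrasts used the 4 groups of a window, and saline changes and differences between effects all 72 libraries. DESeq2 1.42.0 was an alternative, and others were the replicate number as a block, a lowess correction (span 0.3, prior count 2) for GC content and length, and libraries left out. The SE is the log2FC over the square root of F. Levels per kb used the exon union of GENCODE M21, which matched 55141 of 55401 genes. Steps were tested on simulated data. The members, the lists and the rule for named genes (the 5 subunits, up to 4 genes of each receptor list by p, the 3 closest genes per subunit, and markers beside a result) were chosen with earlier results of these data known, and some genes are not reported here. The lowest chi-square per gene over all 2556 pairs of libraries was 1.64, so no pair agreed within sampling noise. Leaving out PND1 libraries whose correlation with GC content was under -0.3 was added after seeing the data. A sex label was taken as contradicted from Xist and Ddx3y levels. Replicate numbers did not pair the samples.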

Additional observations from a re-analysis of the deposited data

Results flagged for a closer look

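The morphine effect was called as different between windows for 3 subunits. Gabrb1 (-0.37) and Gabrg3 (-0.38) had a lower effect at PND14 than at PND1, as did Gabrg1 (-0.19), and Gabrb1 (-0.38) and Gabrg3 (-0.36) had a lower effect in 3-Tri than at PND1, all as log2 differences tested by edgeR in 1 fit. Without PND1 male morphine replicates 6 to 10, only the differences of Gabrg3 were called. Of 35 such differences between windows or sex labels over the 5 subunits, 5 were called. The Gabrg1 call was lost with the GC and length correction (-0.070) and without the low-count filter (-0.20). The 3-Tri minus PND1 calls of Gabrb1 and Gabrg3 were lost without the libraries against their sex label.

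Single libraries stood apart from their group in 8 of 60 sets of a subunit and a group, by the gap to the nearest library over the range of the group, where chance gives about 1 in 20. In PND1 male morphine, replicate 5 held Gabrb1 at 65.2 CPM, with the other 5 at 84.9 to 92.9 CPM, and Gabrb2 at 38.4 CPM, with the others at 63.5 to 75.1 CPM. This library also went against its sex label. In 3-Tri male saline, replicate 1, the shallowest library with 3113919 counts, held Gabrg1 at 36.4 CPM and Gabrd at 31.2 CPM, the lowest of its group, and replicate 3 held Gabrb1 at 149.7 CPM. In PND14 female saline, replicate 12 held Gabrb1 at 146.4 CPM. In 3-Tri female saline, replicate 5 held Gabrb2 at 154.7 CPM, and in 3-Tri female morphine, replicate 11 held Gabrg3 at 82.8 CPM, the highest of its group.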

How the results depend on the processing

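The saline rise from PND1 was called for all 5 subunits under every alternative run. At PND1 with labels averaged, 3 subunits were called, and 1 was, Gabrb1, with the replicate block plus the correction for GC and length. With male labels 1 was called with the correction and 1 with the block and the correction. With female labels DESeq2 called 1. The 3-Tri minus PND1 effect had 0 called without the libraries against their sex label. Without PND1 male morphine replicates 6 to 10, chosen after seeing the data for their base composition, 1 subunit was called at PND1, 0 with male labels and 1 in each of the effect differences PND14 minus PND1 and 3-Tri minus PND1, Gabrg3 where 1 is given. No other count of subunits called moved by over 1.5 times under the other settings, leave-outs included. The numbers did not pair the samples (5 of 31 pairs had an r over 0.1). With the replicate block, Gabrg3 in PND1 males had an adjusted p of 0.0545 and Gabrb2 changed sign to -0.0091 at PND1 and 0.031 for the 3-Tri minus PND1 effect, none of these Gabrb2 values called, and the block changed no other call of a subunit.

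Signs changed only for differences that were not called. Gabrb2 at PND1 was -0.054 with the correction, -0.093 with the block and the correction, and -0.0043 with only the groups compared. With male labels and without the libraries against their label it was 0.015, and with female labels, the block and the correction it was -0.022. With the correction Gabrg1 was -0.023 in PND1 females. Gabrb1 at PND14 was 0.0048 with the correction and 0.0033 with the block and the correction. Gabrb2 in 3-Tri was 0.024 without the libraries against their label. For the 3-Tri minus PND1 effect, Gabrb2 was 0.029 with the correction and 0.10 with the block and the correction, and Gabrg1 was 0.019 with the correction. Without PND1 male morphine replicates 6 to 10, Gabrb2 was -0.37 at PND1, 0.20 for PND14 minus PND1 and 0.34 for 3-Tri minus PND1, and Gabrd was 0.12 at PND1 with male labels, -0.10 for PND14 minus PND1 and -0.042 for 3-Tri minus PND1. The male morphine group was then 1 library, which held the lowest Gabrb2 of its group. With 1 PND1 library left out, Gabrb2 ran from -0.028 to 0.068 with labels averaged and from -0.16 to 0.032 with male labels. With 1 ID number left out, Gabrg1 at PND14 ran from -0.0034 to 0.029 and Gabrg3 in 3-Tri from -0.076 to 0.0029. Leaving out male morphine replicate 5 called Gabrd at PND1 with male labels, at -0.41 (adjusted p = 0.0269). Without the low-count filter, the PND14 minus PND1 effect of Gabrg1 was not called (-0.20, adjusted p = 0.0564).

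Per kb of the longest transcript the means were 16.5 and 43.1 for Gabrb2, 7.29 and 9.36 for Gabrg1, and 3.15 and 7.66 for Gabrg3 in PND1 and PND14 saline. The number of genes called also moved. At PND1 3653 were called, 2001 with the correction and 378 without male morphine replicates 6 to 10, with male labels 3124, 1288 with it and 137 with the block as well, and at PND14 332, against 657 in DESeq2, 98 with the block, 7 without ID number 4424 and 0 without ID number 4425. Without the libraries against their label 50 genes in place of 1855 differed in effect between 3-Tri and PND1. Gabrd at PND1 rests on 40 to 87 counts per library.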
